A study of Mus musculus with 21 samples.

Results

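The heat shock proteins and chaperones described here are 10 genes, followed through 7 fractions of mouse bone marrow. They were, of 18217 genes with a symbol on the array, Hspa1a, Hspa1b, Dnajb1, Hsph1, Hspb1, Hsp90aa1, Hsp90ab1, Hspa8, Hspa5 and Hspd1. Each was found through the RefSeq accession printed for its probes, and 16 probes carried one of these genes. Where a gene had 2 probes, as 6 of the 10 did, the brighter one over all arrays was used.

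The study used arrays of blood progenitors and mature cells to ask how early erythroid and myelomonocytic cells separate. Cells came from the marrow of C57BL/6 mice, and RNA of each fraction was labelled with Cy3 and hybridised to 1-colour whole mouse genome arrays, 3 arrays per fraction and 21 in all. KLS cells (lin- ckit+ sca1+) are the compartment that holds stem and multipotent cells. The erythroid side was PreMegE (CD150+ CD105- FGCrI/II-), CFUe (CD150- CD105- FCGrI/II-) and then Ter119 (CD71+ Ter119+), and the myeloid side was PreGM (CD150- CD105- FGCrI/II-), GMP (CD150- FCGrI/II+) and then Mac1Gr1 (Mac1+ Gr1+). The labels also give lin- ckit+ sca1+ for PreMegE, CFUe, PreGM and GMP, so that CFUe and PreGM carry the same antigens there and are told apart only by name. Every fraction is a sorted population from unmanipulated marrow, with no stress treatment of any fraction in the labels. The labels do not say whether the 3 arrays of a fraction came from separate animals. The p-values therefore measure the spread between these samples, which may be technical in some fractions. The mean level of the Y-linked genes Ddx3y, Eif2s3y, Kdm5d and Uty was -1.06 to -0.533 on all arrays of KLS, PreMegE and Ter119 and on array 3 of CFUe and PreGM, and -7.66 to -6.5 on the others, all arrays of GMP and Mac1Gr1 among them. CFUe and PreGM therefore mixed animals of different sex, so that the spread within these fractions was not technical alone. KLS and GMP differed in the Y-linked genes throughout, as did Ter119 and Mac1Gr1. KLS, PreMegE and Ter119 differed in them from arrays 1 and 2 of CFUe and PreGM. With a sex-chromosome term, which rests on the mixed fractions, the 4 members called in GMP against KLS were called as well, while Hspa5 became called from PreMegE to CFUe (-1.15) and was not called from CFUe to Ter119 (-0.89).

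Heat shock proteins are molecular chaperones, which bind unfolded or partly folded proteins and help them fold, assemble or be degraded. Some are made in large amounts in every growing cell, while others are kept low and are switched on by heat, oxidants or other proteotoxic stress through heat shock factor 1, which binds repeated GAA and TTC units of the heat shock element. In red cell formation the inducible HSP70 is known for protecting GATA1 from cleavage, and the chaperonins of the cytosol and mitochondria serve the high protein synthesis of dividing precursors.

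The promoter letters are shown because the stress-induced members are known as targets of heat shock factor 1, whereas Hspa5 is known for a different element. Windows of 30 bases were cut from the 300 bases around each transcription start in RefSeq (build GRCm38.p6, 250 bases before the start and 50 from it). They are written in the direction of the gene with the matched units in capitals. A heat shock element was searched on both strands as GAANNTTC or TTCNNGAA, its longer form as GAANNTTCNNGAA or TTCNNGAANNTTC, and the endoplasmic reticulum stress element as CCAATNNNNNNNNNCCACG.
Hspa1a, chr17:34972242-34972271, minus strand: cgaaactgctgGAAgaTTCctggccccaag
Hspa1b, chr17:34959324-34959353, minus strand: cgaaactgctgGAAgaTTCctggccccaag
Hsph1, chr5:149636351-149636380, minus strand: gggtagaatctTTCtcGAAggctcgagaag
Hsph1, chr5:149636287-149636316, minus strand: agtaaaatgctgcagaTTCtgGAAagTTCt
Hspb1, chr5:135887801-135887830, plus strand: aGAAgtTTCcagatgggggcaGAAccTTCc
Hspd1, chr1:55088053-55088082, minus strand: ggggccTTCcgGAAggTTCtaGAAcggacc
Hspa5, chr2:34772020-34772049, plus strand: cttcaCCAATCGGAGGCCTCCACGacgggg

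The Hspa1a and Hspa1b windows began 115 bases before their starts and were identical, and the 300-base promoters of the pair differed at 4 bases. The Hspb1 window held the shorter element in 2 places. Of the 10 genes, 7 had a promoter in the RefSeq table, with 10 listed promoters among them. Counts here are by gene and shares by promoter, so a gene with 2 listed starts could match through either. The shorter element was in the promoters of 5 of these 7 genes, against 15.1% of 32851 promoters of the same length. Its longer form was in those of Hsph1 and Hspd1, against 0.603% of promoters. The Hspd1 window is from the second of its listed starts. The stress element stood in the Hspa5 promoter and in 0.119% of all promoters. Neither listed promoter of Dnajb1 held these letters, which says only that they are not in this window. A match is a description of the letters and not a measured binding site.

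A level is given as log2 of the processed intensity minus log2 of that array's 75th percentile, so a level of 1 means an intensity 2-fold above that percentile. Changes are differences of such levels in log2 units, the fraction named first minus the other, with the standard error of limma's fit over all 21 arrays. A change was called when it was at least 2-fold and had a Benjamini-Hochberg adjusted p under 0.05 over the 29532 probes tested. Levels of different genes are not set against each other, because probes differ in brightness. All 10 genes had a probe well above background on all 21 arrays. In bulk samples fewer cells of a type and less RNA per cell cannot be told apart. Of the 110 pairs of a gene and a comparison, 46 were called, 17 of them higher and 29 lower, and all 10 genes varied over the 7 fractions by limma's F-test, as did 94.7% of all probes (adjusted p under 0.05).

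The markers set the fractions apart only in part. The 9 stem and multipotent markers were above background on all KLS arrays, but also on all PreMegE and PreGM arrays, and their summed level was 5.79 to 5.95 in KLS against 5.22 to 5.53 in Mac1Gr1. The 10 erythroid markers on the array summed to 11.76 to 12.11 on Ter119 arrays against 6.64 to 6.74 on CFUe arrays. The Ter119 arrays also carried all 12 granulocytic markers, whose summed level was 12.1 to 12.43, near the 12.23 to 12.42 of Mac1Gr1. Those markers summed to 2.54 to 5.49 on CFUe arrays. B cell markers summed to 7.78 to 8.28 on Ter119 arrays and to 5.44 to 6.21 on Mac1Gr1 arrays. The 11 macrophage markers summed to 4.88 to 6.37 on KLS arrays, against 0.46 to 0.95 on PreMegE arrays. The part of these other cells in the chaperone levels was not tested. The 75th percentile of intensity ran from 196 on a Ter119 array to 1010 on a GMP array.

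The inducible HSP70 genes peaked in PreMegE. Hspa1a encodes the cytosolic HSP70 that refolds damaged proteins after stress. Its level was 6.19, 7.94 and 7.35 on the 3 PreMegE arrays, 4.42, 6.06 and 6.16 on the KLS arrays, and 2.27, 2.48 and 2.51 on the CFUe arrays. It was 3.53, 3.45 and 3.01 in PreGM, 3.33, 3.38 and 3.24 in GMP, 1.35, 1.62 and 1.7 in Ter119, and 0.91, 0.87 and 0.93 in Mac1Gr1. Every PreMegE array lay above every array of the other 6 fractions, and KLS above the remaining 5. From PreMegE to Mac1Gr1 the means spanned 6.26 log2 units, or 76.6-fold.

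Hspa1a rose by 1.62 ± 0.40 (SE) from KLS to PreMegE (limma adjusted p 0.0056). That call was lost with a slide term (adjusted p 0.0513), with both fractions fitted alone (adjusted p 0.115) and under spike-in scaling (adjusted p 0.0666). Toward CFUe it then fell by 4.74 ± 0.40, a 26.7-fold decrease (adjusted p 4.45e-08). On the other side it fell by 2.21 from KLS to PreGM (adjusted p 0.000689) and by 2.42 from GMP to Mac1Gr1 (adjusted p 3.15e-05). PreMegE exceeded PreGM by 3.83, or 14.2-fold (adjusted p 1.36e-06). Neighbours in the order of levels from PreGM down (PreGM, GMP, CFUe, Ter119, Mac1Gr1) were not called different. On the slides that held both fractions, CFUe array 2 minus PreMegE array 1 was -3.72, and PreMegE minus PreGM was 4.34 and 4.40.

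**Figure D1:**
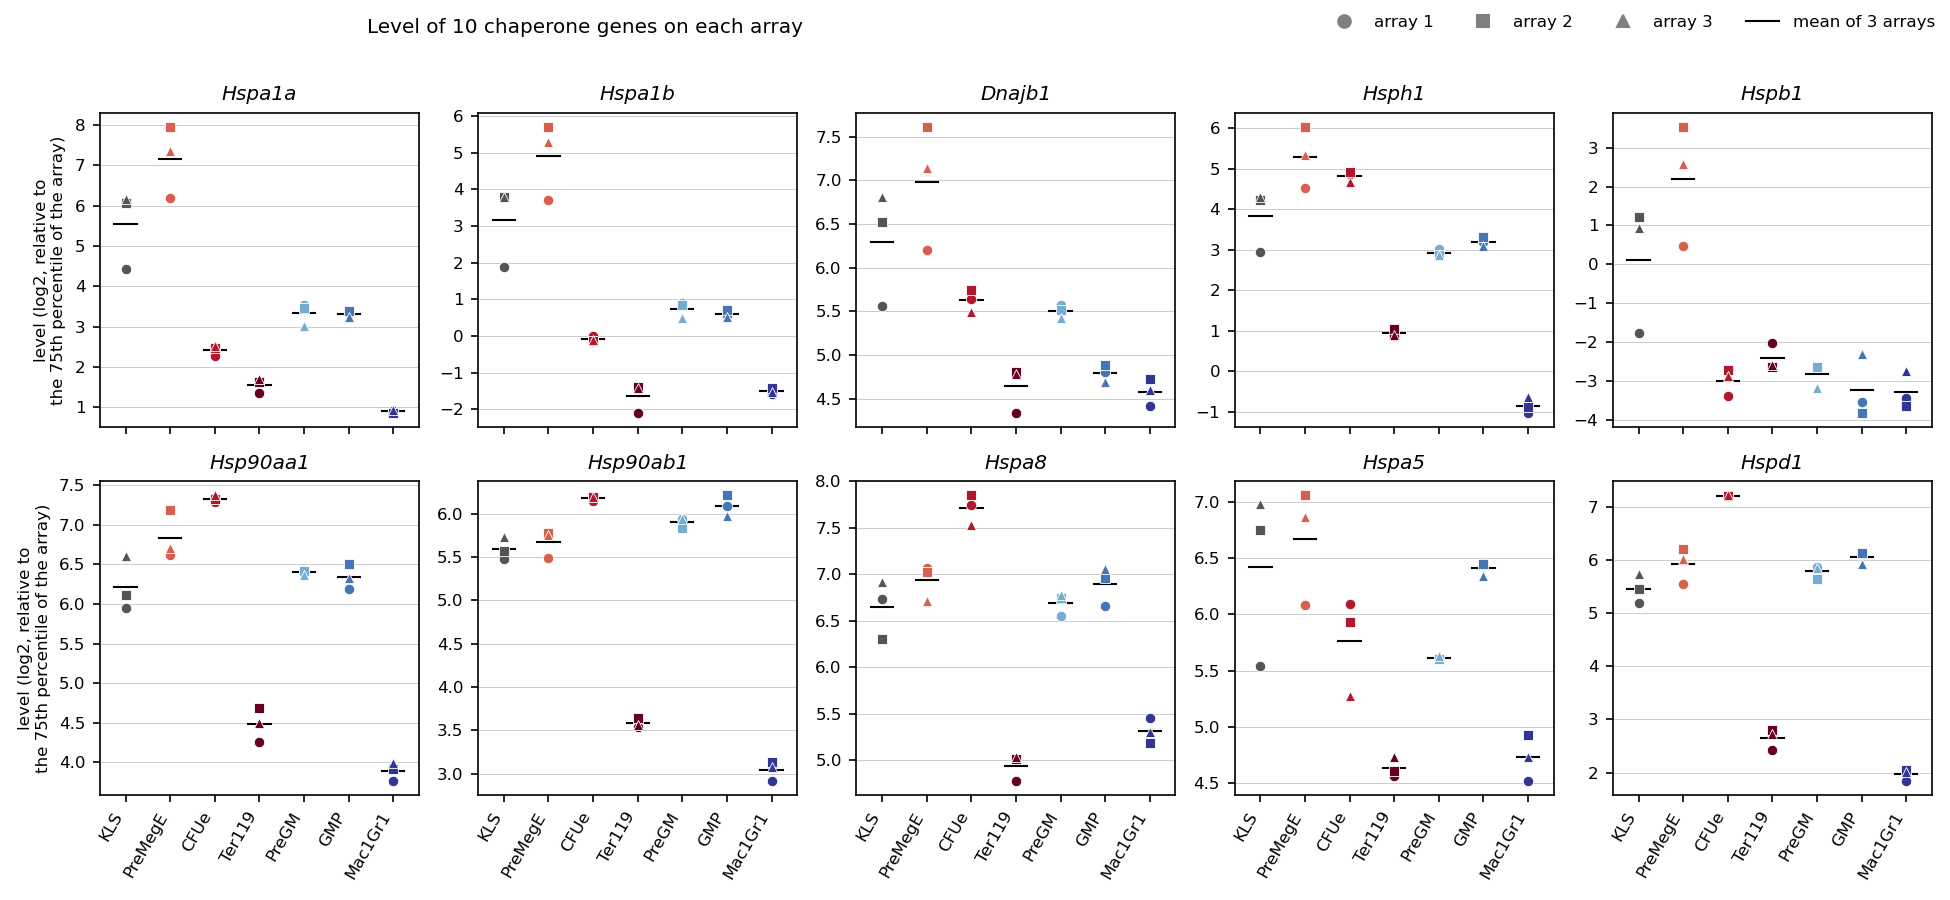
Level of each of the 10 genes (y axis, log2 relative to the 75th percentile of the array) in the 7 fractions (x axis), 1 panel per gene. Circles, squares and triangles are arrays 1, 2 and 3 and the black bar is their mean. Hspa1a, Hspa1b and Hspb1 are highest in PreMegE and then KLS, with array 1 low in both, while Hsp90aa1, Hsp90ab1, Hspa8 and Hspd1 are highest in CFUe at this scaling (below GMP under spike-in scaling) and low in Ter119 and Mac1Gr1.

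Hspa1b, the neighbouring gene for nearly the same protein, followed the same course. Its level was 3.71, 5.69 and 5.28 in PreMegE, 1.89, 3.80 and 3.78 in KLS, 0.90, 0.84 and 0.50 in PreGM, and 0.56, 0.72 and 0.52 in GMP. In Ter119 it was -2.09, -1.38 and -1.42, and in Mac1Gr1 -1.59, -1.42 and -1.52, with overlap between these mature fractions, while the CFUe arrays lay between -0.15 and 0. PreMegE array 1 lay below KLS array 2, so that these fractions overlapped. Hspa1b rose by 1.74 ± 0.46 from KLS to PreMegE (adjusted p 0.00904), fell by 4.99 toward CFUe (31.7-fold, adjusted p 1.31e-07) and fell by 1.54 from CFUe to Ter119 (adjusted p 0.00592). The rise was not called with the fractions fitted alone (adjusted p 0.132) or under spike-in scaling (adjusted p 0.0756). The change from CFUe to Ter119 was -0.96 after normexp background correction and was then not called. The near-identical sequences of the pair mean that a probe of one may also take up RNA of the other, so their levels are not independent of each other.

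Both HSP70 partners peaked in PreMegE too, with different courses afterwards. Dnajb1, an HSP40 that delivers clients to HSP70 and stimulates its ATPase, had levels of 6.20, 7.61 and 7.14 in PreMegE, 5.56, 6.52 and 6.81 in KLS and 5.64, 5.75 and 5.49 in CFUe. Its means in the other fractions ran from 4.58 in Mac1Gr1 to 5.50 in PreGM. PreMegE overlapped KLS, and the 2.40 log2 units between its highest and lowest means were fewer than for the other induced genes. Between PreMegE and CFUe Dnajb1 fell by 1.36 ± 0.30 (adjusted p 0.00124), and it was 1.48 higher in PreMegE than in PreGM (adjusted p 0.00133). Its change from KLS to PreMegE, 0.68, was not called (adjusted p 0.112). With a slide term the change from PreMegE to CFUe was -0.98 and was not called.

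The second probe of Dnajb1 gave the same direction in the called comparisons, with larger changes. On it the change from PreMegE to CFUe was -2.58, against -1.36. The dimmer probe was called in 5 contrasts where the brighter was not, among them CFUe below KLS at -1.71 (adjusted p 0.00159) and PreGM below KLS at -1.40 (adjusted p 0.0181). Across the 6 genes with a second probe, 69 of 78 pairs of calls were alike, 9 differed and 0 went in opposite called directions.

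Hsph1 encodes an HSP110, a nucleotide exchange factor that releases clients from HSP70. Its level was 4.51, 6.02 and 5.33 in PreMegE and 4.86, 4.92 and 4.66 in CFUe, which overlapped. It was 2.93, 4.22 and 4.31 in KLS, 3.01, 2.86 and 2.87 in PreGM, 3.19, 3.30 and 3.10 in GMP, 0.88, 1.03 and 0.89 in Ter119, and -1.02, -0.89 and -0.64 in Mac1Gr1. Unlike Hspa1a, it stayed high in CFUe, with a change from PreMegE of -0.47 (adjusted p 0.241).

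Hsph1 rose by 1.47 ± 0.33 from KLS to PreMegE (adjusted p 0.00261), a call lost with the fractions fitted alone (adjusted p 0.089) and under spike-in scaling (adjusted p 0.0661). It then fell by 3.88 from CFUe to Ter119 (adjusted p 7.95e-09) and by 4.05 from GMP to Mac1Gr1 (16.5-fold, adjusted p 4.63e-09). CFUe exceeded GMP by 1.62 (adjusted p 0.000482), a difference of 0.24 under spike-in scaling (adjusted p 0.552), where the median of all probes was -1.16. Hsph1 was also the single member called between the mature fractions, 1.78 higher in Ter119 than in Mac1Gr1 (adjusted p 0.000132).

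Hspb1, a small heat shock protein that holds unfolding proteins without ATP and binds actin, was dim outside KLS and PreMegE. Its level was 0.47, 3.52 and 2.58 in PreMegE and -1.76, 1.21 and 0.93 in KLS. The arrays of the other 5 fractions lay between -3.80 and -2.02, all below the lowest KLS array. Toward CFUe Hspb1 fell by 5.17 ± 0.72, or 36.0-fold (adjusted p 1.34e-05), and by 2.94 from KLS to PreGM (adjusted p 0.00655). Its rise from KLS to PreMegE, 2.06, had an adjusted p of 0.0437, with overlapping arrays, and was 1.12 without KLS array 1 (adjusted p 0.243). PreMegE exceeded PreGM by 5.01 on all arrays and by 5.76 and 6.15 within slides. None of the other 6 small heat shock proteins tested was called between KLS and PreMegE by limma, and 1 had an unadjusted p under 0.05.

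The cytosolic HSP90 genes had their highest means in CFUe, an order that rested on the scaling. Under spike-in scaling Hsp90aa1 had a difference of -0.39 in CFUe against GMP (adjusted p 0.174) and Hsp90ab1 one of -1.29 (adjusted p 0.000282). That scaling moved the median of all probes in this comparison from 0.22 to -1.16. Hsp90aa1, the more inducible of the HSP90 pair that matures kinases and steroid receptors, had levels of 7.29, 7.33 and 7.37 in CFUe, above 6.62, 7.18 and 6.71 in PreMegE. It was 5.95, 6.11 and 6.60 in KLS, 4.26, 4.69 and 4.5 in Ter119, and 3.77, 3.92 and 3.99 in Mac1Gr1. The CFUe arrays did not overlap those of any other fraction, while PreGM, GMP and KLS overlapped each other. Hsp90aa1 fell by 2.85 ± 0.17 from CFUe to Ter119 (adjusted p 8.84e-11) and had a change of -2.44 from GMP to Mac1Gr1 (adjusted p 6.3e-10). It was 1.11 higher in CFUe than in KLS (adjusted p 2.14e-05), a difference of 0.31 under quantile scaling and 0.98 without KLS array 1, called in neither.

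Hsp90ab1, the constitutive HSP90, lay between 5.48 and 6.21 on all arrays of the 5 progenitor fractions. It was 3.54, 3.64 and 3.56 in Ter119 and 2.92, 3.14 and 3.08 in Mac1Gr1, with every mature array below every progenitor array. It fell by 2.60 ± 0.11 from CFUe to Ter119 (adjusted p 6.99e-13) and by 3.04 from GMP to Mac1Gr1 (8.24-fold, adjusted p 1.17e-13). No other comparison of Hsp90ab1 was called.

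Hspa8, the constitutive HSP70 that also uncoats clathrin vesicles, was 7.75, 7.85 and 7.53 in CFUe, above 7.07, 7.03 and 6.71 in PreMegE. It was 6.73, 6.30 and 6.92 in KLS, 4.78, 5.01 and 5.04 in Ter119, and 5.45, 5.19 and 5.30 in Mac1Gr1. KLS, PreGM, GMP and PreMegE overlapped. Under spike-in scaling the CFUe mean of Hspa8 was below that of GMP, with a difference of -0.57 (adjusted p 0.0648). The median of all probes was -1.16 there. Hspa8 fell by 2.76 ± 0.16 from CFUe to Ter119 (adjusted p 7.08e-11) and by 1.58 from GMP to Mac1Gr1 (adjusted p 1.02e-07). Its increase from KLS to CFUe, 1.06, was called (adjusted p 2.23e-05) but was 0.33 under quantile scaling, 0.86 with a slide term, 0.88 without KLS array 2 and 0.98 without CFUe array 2, and was called in none of these.

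Hspa5, known as BiP, is the HSP70 of the endoplasmic reticulum and a target of the unfolded protein response. Its level was 6.08, 7.06 and 6.87 in PreMegE, 5.54, 6.75 and 6.98 in KLS, and 6.44, 6.45 and 6.34 in GMP, which overlapped. It was 6.09, 5.93 and 5.27 in CFUe, 5.60, 5.60 and 5.63 in PreGM, 4.56, 4.61 and 4.73 in Ter119, and 4.52, 4.93 and 4.73 in Mac1Gr1. Hspa5 fell by 1.13 ± 0.31 from CFUe to Ter119 (adjusted p 0.00328). That change was -0.72 under quantile scaling and -0.96 without CFUe array 1, and was called in neither. It fell by 1.68 from GMP to Mac1Gr1 (adjusted p 0.000101). It was 1.06 higher in PreMegE than in PreGM (adjusted p 0.0161), but 0.86 without PreMegE array 2 (adjusted p 0.0808) and 0.96 without array 3 (adjusted p 0.063).

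Hspd1, the HSP60 chaperonin of the mitochondrial matrix, had its highest level in CFUe, at 7.20, 7.19 and 7.21. It was 5.18, 5.46 and 5.74 in KLS, 5.55, 6.21 and 6.01 in PreMegE, 5.87, 5.64 and 5.84 in PreGM, and 6.10, 6.13 and 5.93 in GMP. The mature fractions were far lower, at 2.42, 2.80 and 2.72 in Ter119 and 1.85, 2.05 and 2.01 in Mac1Gr1. No CFUe array overlapped another fraction, and the means spanned 37.5-fold. CFUe against GMP gave 1.15, and -0.24 under spike-in scaling (adjusted p 0.459), where the median of all probes was -1.16. Between PreMegE and CFUe Hspd1 rose by 1.28 ± 0.17 (adjusted p 6e-06), then fell by 4.55 from CFUe to Ter119 (23.5-fold, adjusted p 2.01e-13) and fell by 4.08 from GMP to Mac1Gr1 (16.9-fold, adjusted p 6.86e-13). The rise from PreMegE to CFUe was 0.68 under quantile scaling, 0.84 in the series table and 0.76 under spike-in scaling, and was called under none of these.

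**Figure D2:**
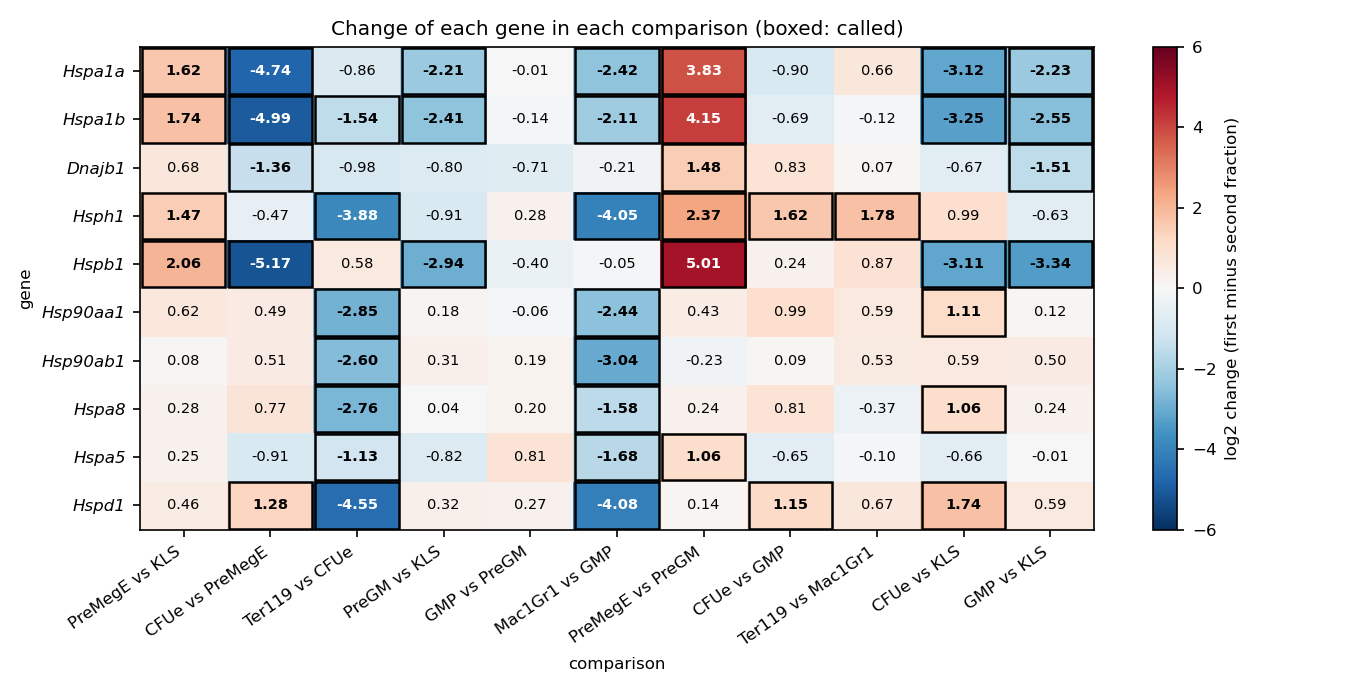
Log2 change of each gene (rows) in the 11 comparisons (columns, first fraction minus second) as coloured cells with the value printed. Boxed bold values were called (at least 2-fold, limma adjusted p under 0.05). From PreMegE to CFUe, Hspa1a, Hspa1b and Hspb1 change by -4.74, -4.99 and -5.17.

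Along the erythroid path, 4 of the 10 genes, all stress-induced, were called higher at the first step (KLS to PreMegE) and 0 lower, where 3.55% of all probes were called higher and 8.86% lower. Under spike-in scaling, and with these fractions fitted alone, 0 of the 10 were called, with changes of 1.15 for Hspa1a and 1.28 for Hspa1b under spike-in scaling. Spike-in scaling moved the median of all probes at this step from 0.13 to -0.33. The arrays of 3 genes did not overlap there, against 42.0% of probes. The median change was 1.62 for the induced genes, 0.27 for the constitutive ones (Hsp90ab1, Hspa8, Hspa5 and Hspd1) and 0.13 for all probes.

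At the second step (PreMegE to CFUe) Hspa1a, Hspa1b, Hspb1 and Dnajb1 fell and Hspd1 rose, where 14.7% of probes were called lower and 9.96% higher. Arrays of 8 genes did not overlap, as for 56.3% of probes. The median change was -4.74 for the induced genes and 0.64 for the constitutive ones, against 0.12 for all probes. Hspa5, counted with the constitutive genes, had a change of -0.91 there and was not called. Under quantile, spike-in and series-table scaling the split was 0 higher and 5 lower, with Hspa5 among the lower and Hspd1 not called. PreMegE also differed from CFUe arrays 1 and 2 in the Y-linked genes.

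At the third step (CFUe to Ter119) 7 genes fell and 0 rose, where 28.0% of probes were called lower and 29.2% higher. Hspa1a, Dnajb1 and Hspb1 were not called. All 10 genes had arrays that did not overlap at this step, as did 76.6% of probes. The constitutive genes had a median change of -2.68 and all probes one of 0.05. The granulocytic markers that rose on the Ter119 arrays moved with this step, and their part in it was not tested.

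Along the myeloid path, 3 genes fell from KLS to PreGM (Hspa1a, Hspa1b and Hspb1) and 0 rose, with 6.53% of probes called lower and 2.11% higher. Arrays of 4 genes did not overlap, against 41.2% of probes. Under quantile, spike-in and series-table scaling the count was 6. Without KLS array 1 it was also 6, with Dnajb1, Hsph1 and Hspa5 added. KLS also differed from PreGM arrays 1 and 2 in the Y-linked genes. From PreGM to GMP, 0 genes were called by limma and 2 had an unadjusted p under 0.05, where 4.01% of probes were called higher and 6.36% lower. The arrays of 5 genes did not overlap, near the 44.3% of all probes. Hspa5 had the lowest adjusted p there, 0.0661, with a change of 0.81 and no overlap of arrays. Under spike-in scaling, which moved the median of all probes in this comparison from -0.02 to 0.99, 6 genes were called higher, and so were 47.5% of all probes.

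From GMP to Mac1Gr1, 8 genes fell and 0 rose, with 27.6% of probes called lower and 29.1% higher. Dnajb1 (-0.21) and Hspb1 (-0.05) were not called, and the other 8 had arrays that did not overlap, as had 78.3% of probes. The induced genes had a median change of -2.11 and the constitutive ones of -2.36, against 0.17 for all probes.

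Between the lineages at matched steps, PreMegE exceeded PreGM in 6 genes, the 5 stress-induced ones and Hspa5, and was lower in 0, where 5.81% of probes were called higher and 6.23% lower. The median change of the induced genes was 3.83 and that of the constitutive ones 0.19. Arrays of 8 genes did not overlap, against 42.7% of probes. In the Y-linked genes PreMegE also differed from PreGM arrays 1 and 2. CFUe exceeded GMP in Hsph1 and Hspd1, where 12.1% of probes were called higher and 14.2% lower, and 8 genes had arrays that did not overlap, against 59.7% of probes. That split of 2 higher and 0 lower became 1 and 1 under quantile scaling, 1 and 2 in the series table and 0 and 4 under spike-in scaling. Spike-in scaling gave a median of -1.16 over all probes in CFUe against GMP. Ter119 exceeded Mac1Gr1 in 1 gene, Hsph1, where 22.0% of probes were called higher and 19.9% lower, and spike-in scaling gave 1 higher and 1 lower. Arrays of 7 genes did not overlap there, near the 71.3% of all probes. Ter119 and Mac1Gr1 also differed in the Y-linked genes on every array.

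Set against KLS directly, Hspa1a, Hspa1b and Hspb1 were lower in CFUe (changes of -3.12, -3.25 and -3.11) while Hsp90aa1, Hspa8 and Hspd1 were higher, with 19.1% of probes called lower and 17.2% higher. Arrays of 8 genes did not overlap, against 66.0% of probes. That split of 3 and 3 was 0 higher and 5 lower under quantile and spike-in scaling and 1 and 5 in the series table. With a slide term the change of Hspb1 was -2.20 and was not called (adjusted p 0.0623). Without KLS array 1, Dnajb1 (-1.04) and Hspa5 (-1.10) were also lower in CFUe. GMP was below KLS in 4 induced genes and above in 0, with 13.7% of probes called lower and 8.0% higher. The induced gene not called was Hsph1 (-0.63, and -1.07 and called without KLS array 1), and 6 genes had arrays that did not overlap, against 56.2% of probes. KLS also differed in the Y-linked genes from CFUe arrays 1 and 2 and from all GMP arrays. Several of these comparisons share a fraction, so their values are not independent.

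The lineages were also set against each other within the fit, the change at an erythroid step minus that at the matching myeloid step. At the second step the difference was called for 5 members, higher for Hspd1 and lower for Hspa1a, Hspa1b, Hspb1 and Hspa5, where 8.38% of probes were called higher and 11.8% lower. At the third step it was called for 2, higher for Hspa1a and lower for Hspa8, where 20.9% of probes were called higher and 19.0% lower.

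The 5 stress-induced genes and the 4 constitutive ones were also set side by side on each array, each gene taken relative to its own mean over the 21 arrays. Hsp90aa1, which is both abundant and inducible, was kept apart. The median of the induced genes minus that of the constitutive ones was 1.80, 3.56 and 3.09 on the PreMegE arrays and -0.15, 2.16 and 2.04 on the KLS arrays. It was -2.07 ± 0.09 (SD, n = 3) in CFUe, where the constitutive median stood at 1.14 and the induced median at -0.93. PreGM (-0.60 ± 0.30), GMP (-1.08 ± 0.05), Ter119 (-0.33 ± 0.06) and Mac1Gr1 (-0.73 ± 0.06) lay between. All PreMegE arrays and KLS arrays 2 and 3 were above 1, and every array of the other 5 fractions was below 0. In Ter119 and Mac1Gr1 both medians were low, at -1.87 and -2.39 for the induced genes and -1.54 and -1.66 for the constitutive ones. These values are a description, with no test.

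**Figure D3:**
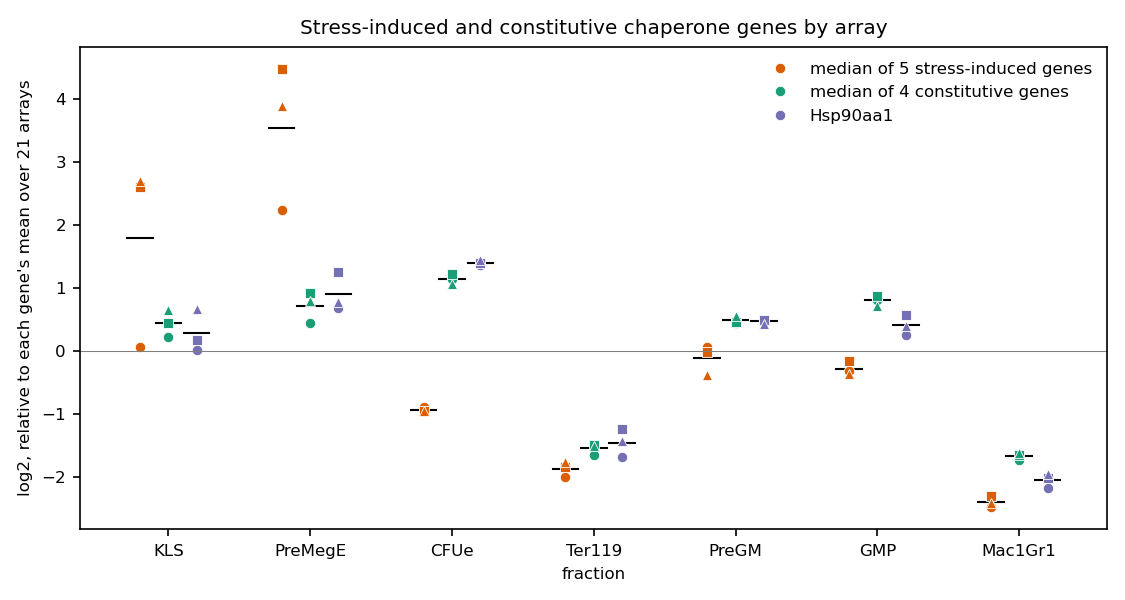
Median of the 5 stress-induced genes, median of the 4 constitutive genes, and Hsp90aa1 on each array (y axis, log2 relative to each gene's mean over the 21 arrays) in the 7 fractions (x axis). Points are arrays and bars are means of 3. The induced median is 3.53 in PreMegE and -0.93 in CFUe, while the constitutive median is 0.72 and 1.14.

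The induced genes were uneven among the KLS and PreMegE arrays. Array 1 gave the lowest value of 9 of the 10 genes in KLS and again in PreMegE, the exception being Hspa8. The median difference of the induced genes between array 1 and the other arrays was -1.69 in KLS and -1.45 in PreMegE. Over all probes the corresponding medians were -0.07 and 0. For the constitutive genes they were -0.29 and -0.42, with differences of -1.32 and -0.89 for Hspa5 alone. Hspb1 had a standard deviation of 1.64 between the KLS arrays and 1.56 between the PreMegE arrays, where 0.572% and 0.823% of probes varied as much. For Hspa1a, with 0.98 and 0.89, these shares were 3.3% and 2.68%. Ter119 array 1 was also the lowest for 9 genes, with a median difference of -0.31 for the induced ones.

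Other measures moved with the low arrays in part. The summed macrophage markers were 6.37 on KLS array 1 against 5.56 and 4.88, and 0.95 on PreMegE array 1 against 0.52 and 0.46. The 14 immediate early genes, which respond to handling and growth signals, had a median of -0.53 on KLS array 1 relative to the others, with 11 of 14 lower, and of -0.17 on PreMegE array 1, with 9 of 14 lower. Their part in the chaperone values was not tested. With both arrays left out, a setting added after the data were seen, the same 4 genes were called higher in PreMegE than in KLS. With only KLS array 1 left out, 2 genes were called, and without PreMegE array 2 also 2, with Hspa1b (1.11, adjusted p 0.0549, and 1.34, adjusted p 0.0602) and Hspb1 lost in each. PreMegE and KLS shared no slide, and with the slide as a term Hspa1a had a change of 1.87 (adjusted p 0.0513) and Hspa1b of 2.01 (adjusted p 0.0502), leaving Hsph1 called.

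**Figure D4:**
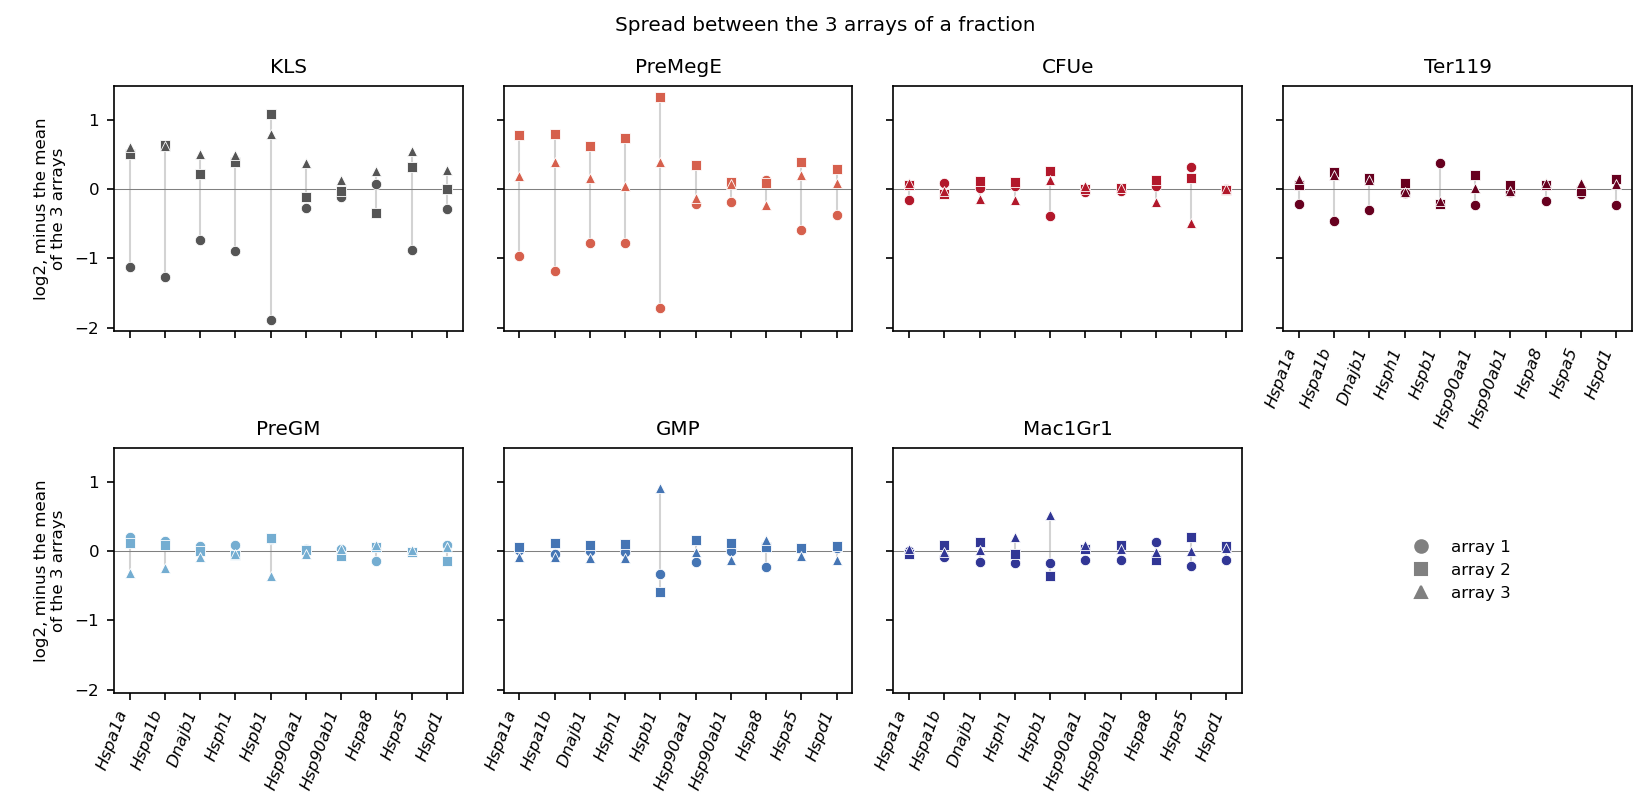
Deviation of each of the 10 genes on each array from the mean of its fraction's 3 arrays (y axis, log2), by gene (x axis). Each fraction has its own panel, and marker shapes are the arrays. Array 1 of KLS and of PreMegE lies below the other arrays for 9 of 10 genes. The arrays of CFUe, Ter119, PreGM, GMP and Mac1Gr1 lie closer together for most genes.

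Related chaperones were read through lists of the pathway. Among 18 tested heat shock factors and HSP90 or HSP70 co-chaperones, 1 rose from KLS to PreMegE, Bag3, the co-chaperone of chaperone-assisted autophagy and itself a heat shock factor target. It rose by 1.22 ± 0.20 (adjusted p 0.000157) and 8 of the 18 had an unadjusted p under 0.05. At that step 3.55% of all probes were called higher, so that 1 of 18 is near the share of all probes. Among 18 DnaJ proteins Dnajb4 alone rose there, by 1.39 (adjusted p 0.00211). Both were also higher in PreMegE than in PreGM, Bag3 by 1.21 and Dnajb4 by 1.72. Hsf1 itself had values of 0.24 from KLS to PreMegE and 0.18 from PreMegE to CFUe, neither called.

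Chaperonin subunits rose with Hspd1 at the second step. Of 15 subunits of the cytosolic chaperonin TRiC and its partner prefoldin, 10 rose and 0 fell from PreMegE to CFUe, with a median change of 1.17 against 0.12 over all probes, of which 9.96% were called higher. The count was 5 under quantile scaling and 0 under spike-in scaling. Cct8 rose by 1.47 there. Of 11 mitochondrial chaperones and proteases, 6 rose there, among them Hspe1, the co-chaperonin of Hspd1, by 1.07. That count was 2 under quantile scaling and 1 under spike-in scaling. Spike-in scaling moved the median of all probes at this step from 0.12 to -0.39. Hspa9, the mitochondrial HSP70, rose by 1.34 as well, while Hspa12b, another HSP70 gene, had a change of -2.83.

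At the third step most genes of these lists fell in both lineages. From CFUe to Ter119, 13 of 15 TRiC and prefoldin subunits fell (median -2.73, Cct3 -4.39), as did 10 of 11 mitochondrial genes (median -2.50, Trap1 -4.03) and 15 of 18 co-chaperones (median -2.03, Fkbp4 -4.36), where 28.0% of all probes were called lower. From GMP to Mac1Gr1 the counts were 13, 8 and 15, with medians of -2.25, -1.83 and -1.90, where over all probes the median was 0.17 and 27.6% were called lower. Under the 4 other scalings these counts ranged from 8 to 18. Of the 18 DnaJ proteins 4 were higher and 4 lower from CFUe to Ter119, shares below the 29.2% and 28.0% of all probes, with changes of 3.34 for Dnaja4 and -3.51 for Dnaja3.

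Of the 20 genes of the endoplasmic reticulum list, 13 were higher and 1 lower in GMP than in KLS (median 1.23), where 8.0% of all probes were called higher and 13.7% lower. From PreGM to GMP 7 rose, against 4.01% of all probes, and Hspa5 was not called. That last count was 6 under quantile scaling and 18 under spike-in scaling, where 47.5% of all probes were called higher. From GMP to Mac1Gr1, 13 of the 20 fell and 1 rose (median -2.17), where 27.6% of all probes were called lower. Of the TRiC and prefoldin subunits and the co-chaperones, 0 were called by limma in either of the first 2 comparisons, and the difference between lists was not tested. From KLS to GMP 13 of 15 and 13 of 18 had an unadjusted p under 0.05, and from PreGM to GMP 5 and 8. Sdf2l1, a stress-inducible partner of Hspa5, rose by 1.73 from PreGM to GMP and fell by 4.91 from GMP to Mac1Gr1. Hsp90b1, the HSP90 of the endoplasmic reticulum, rose by 1.06 from PreGM to GMP (adjusted p 1.44e-05). CFUe was below GMP in 11 of the endoplasmic reticulum genes and above in 1, where 14.2% of all probes were called lower.

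The immediate early genes moved with the inducible HSP70 genes at the second erythroid step and against them at the last myeloid step. From PreMegE to CFUe, 13 of 14 fell and 0 rose (median -2.73), against 14.7% of all probes called lower, with changes of -3.11 for Fos and -3.31 for Jun. In PreMegE 9 were higher than in PreGM, against 5.81% of all probes. From GMP to Mac1Gr1, 9 rose and 1 fell, against 29.1% of all probes called higher, where Hspa1a fell by 2.42. Under spike-in scaling that last split was 1 higher and 4 lower, where the median of all probes was -1.86. The immediate early genes summed to 9.97 to 10.18 in KLS, at most 10.3 in PreMegE and 9.86 to 9.89 in Mac1Gr1. Mac1Gr1 was the fraction with the lowest Hspa1a.

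**Figure D5:**
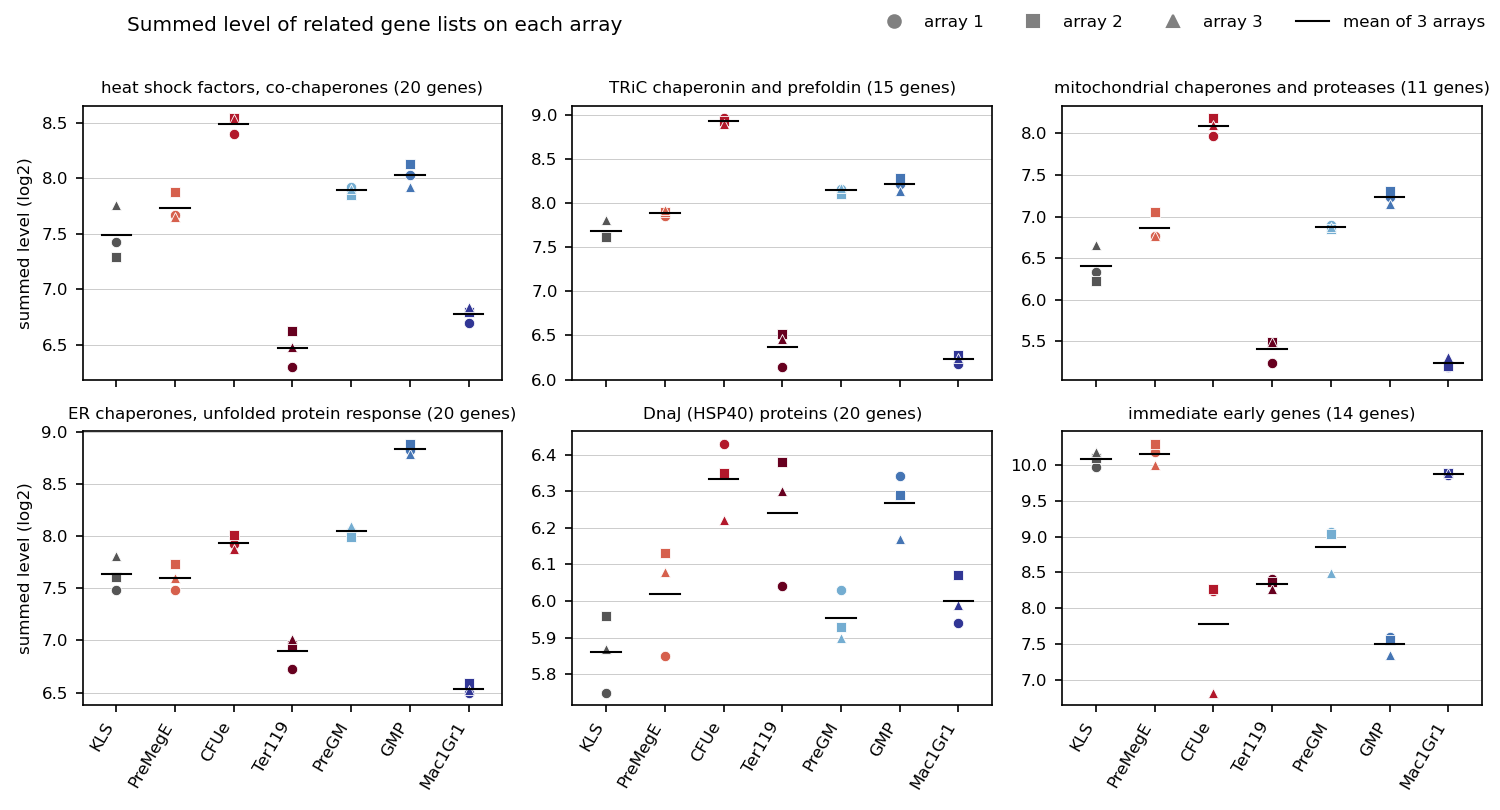
Summed level of 6 gene lists on each array (y axis, log2 relative to the 75th percentile of the array) in the 7 fractions (x axis). Points are arrays. Immediate early genes are high in KLS, PreMegE and Mac1Gr1.

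Across the 21 arrays, genes were ranked by Pearson's r with each member over 14285 genes, a description over arrays that share fractions. Hspa1a was most like Hspa1b (0.993), H1f0, a linker histone (0.963), and Psd3 (0.949). Hspb1 was most like H1f0 too (0.922). Jun was among the nearest to Hspa1b, at 0.95. Hsp90ab1 was most like Nop16, Trap1 and Mettl1 (0.996), and Hspd1 most like Gtf2h4 (0.997), Gnl3 and Ncl (0.996). Hsp90aa1 was closest to Surf2 (0.995) and Hspa8 to Nop2 (0.982), while no gene exceeded 0.922 for Hspa5, whose nearest was Calm2. The median r over all genes was between -0.0204 and 0.00759 for the 10 members. Among the members themselves r was 0.987 for Hsp90aa1 with Hspd1 and 0.982 for Hsp90ab1 with Hspd1, and 0.179 for Hspb1 with Hspa8. Hsph1, listed with the induced genes, had r of 0.954 with Hsp90aa1 and 0.566 with Hspb1. Hspa5, listed with the constitutive genes, had r from 0.624 (Hspb1) to 0.856 (Hspa1b) with the induced genes. With the other constitutive genes its r ran from 0.697 (Hspa8) to 0.774 (Hsp90ab1).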

How the data were processed

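RNA of 7 sorted marrow fractions was hybridised to 21 Agilent 1-colour arrays on 9 slides, 3 arrays per fraction. The authors deposited Feature Extraction files, whose processed signal is an intensity on a linear scale after background subtraction. They also deposited a series table of log2 values. For normalizing and testing its arrays the study names LIMMA and SAM, without the normalization function used. The deposited log2 values ranked probes within an array as the processed intensity did (rank correlation at least 0.9998) and served as an alternative. The arrays print older mm9 annotation, while symbols and promoters came from RefSeq tables of GRCm38.p6, which gave 26690 of 41174 probes a symbol.

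Control spots and 80 to 283 outlier spots per array were left out, and 0 spots were saturated. Levels are log2 processed intensity minus each array's 75th percentile, averaged over spots of a probe. Between 56.4% and 77.4% of spots per array were well above background, and 29532 probes that were so on all 3 arrays of a fraction were tested with limma 3.58.1 (R 4.3.3), with 1 mean per fraction over all arrays and no block. Calls needed a Benjamini-Hochberg adjusted p under 0.05 and a 2-fold change. The number of arrays limits the precision. The fit was checked on simulated data. Tables and plots were made with Python 3.11.15.

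All 10 members were tested in every comparison, and the text does not print every value. From the other lists it names only some of the genes with the largest called rise or fall at a step. It adds direct partners of a member (Hsf1, Hspe1, Hsp90b1) and Fos and Jun, which were chosen after their values were seen. The members and lists were chosen with earlier results of these data known. Alternatives were quantile and spike-in scaling (7 of 10 spike-in sequences), the series table, normexp background correction with offset 50 on median pixel intensity, no filter, slide, replicate and sex-chromosome terms, the 2 groups fitted alone, no minimum fold, the second probe, and each array left out. Leaving out array 1 of both KLS and PreMegE was added after the data were seen.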

Additional observations from a re-analysis of the deposited data

Results flagged for a closer look

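Of the differences between the lineages, 7 passed limma's test of the difference itself, which sets the change at an erythroid step against the change at the matching myeloid step. At the second step, CFUe minus PreMegE was set against GMP minus PreGM, and 5 of the 10 members were called. Over all probes 8.38% were called higher and 11.8% lower. The difference for Hspa1a was -4.73 ± 0.56 (SE, adjusted p 5.87e-06), with -4.74 on the erythroid side and -0.01 on the myeloid side. For Hspa1b it was -4.84 ± 0.65 (adjusted p 2.09e-05) and for Hspb1 -4.77 ± 1.02 (adjusted p 0.00156). Hspa5 had a difference of -1.71 ± 0.44 (adjusted p 0.00576), with values of -0.91 toward CFUe and 0.81 toward GMP, neither of them called. Hspd1 had a difference of 1.01 ± 0.23 (adjusted p 0.00289), which was under the 2-fold limit without PreMegE array 1 (0.82), PreGM array 1 (0.97), PreGM array 3 (0.98) or GMP array 3 (0.95), with normexp (0.89), on the second probe (0.95), under quantile scaling (0.55) and in the series table (0.53, adjusted p 0.0985), and had the opposite sign under spike-in scaling (-0.52).

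At the third step, Ter119 minus CFUe was set against Mac1Gr1 minus GMP, and 2 members were called. Of the 10 members 1 was higher and 1 lower, shares below the 20.9% and 19.0% of all probes. Hspa1a had a difference of 1.55 ± 0.56 (adjusted p 0.027), from -0.86 on the erythroid side and -2.42 on the myeloid side, and it was 0.84 with a slide term (adjusted p 0.401) and 1.48 (adjusted p 0.0535) without CFUe array 1 and again without Ter119 array 3. Hspa8 had a difference of -1.18 ± 0.23 (adjusted p 0.000321), from -2.76 and -1.58. That of Hspa8 was -0.46 under quantile scaling, -0.52 under spike-in scaling, -0.28 in the series table and -0.90 on the second probe, and was called in none of these. The granulocytic markers were on the Ter119 arrays at the level of Mac1Gr1, and their part in these differences was not tested.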

How the results depend on the processing

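Of 2348 changes of a member under an alternative setting, 2178 stayed on their side of the threshold (106 of these, called under neither setting, with the other sign), 101 gained a call, 63 lost one and 6 reversed. Called members from KLS to PreMegE numbered 4, and 0 under spike-in scaling, 1 with a slide term, 0 when the 2 fractions were fitted alone and 2 to 5 with an array left out (2 without KLS array 1 or PreMegE array 2). From PreMegE to CFUe 5 became 9 with no minimum fold (5 to 6 with an array left out). From KLS to PreGM 3 became 6 under quantile, spike-in and series-table values and without array 1 of KLS and PreMegE (3 to 6 with an array left out). From PreGM to GMP 0 became 6 under spike-in scaling (0 to 0). CFUe against GMP, 2, became 4 under spike-in scaling, 4 with a slide term and 5 with no minimum fold (2 to 3). Ter119 against Mac1Gr1, 1, became 2 under spike-in scaling, 4 with no minimum fold and 2 on the second probe (1 to 1). With an array left out the other counts ranged from 6 to 8 (CFUe to Ter119), 8 to 8 (GMP to Mac1Gr1), 5 to 6 (PreMegE against PreGM), 5 to 7 (CFUe against KLS), 4 to 5 (GMP against KLS), 4 to 6 (second-step difference), 1 to 2 (third-step difference) and 10 to 10 (F-test).

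The third-step split of 1 higher and 1 lower was 3 and 0 under quantile scaling and in the series table, 2 and 0 under spike-in scaling and 0 and 2 with a slide term. Changes called in 1 of the 2 settings and reversed under spike-in scaling were Hspa1a from PreGM to GMP (1.0 against -0.01), Hsp90ab1 (-1.29 against 0.09) and Hspd1 (-0.24 against 1.15) in CFUe against GMP, and Hsp90ab1 (-1.22 against 0.32) and Hspd1 (-0.52 against 1.01) in the second-step difference. Hsp90aa1 (-0.39 against 0.99) and Hspa8 (-0.57 against 0.81) in CFUe against GMP also changed sign under spike-in scaling, called under neither. Dnajb1 in Ter119 against Mac1Gr1 was -1.07 on its second probe against 0.07. The cause was not tested, but spike-in scaling moved the median of all probes to between -1.86 (GMP to Mac1Gr1) and 0.99 (PreGM to GMP). That median was -1.16 in CFUe against GMP and -1.39 in the second-step difference. The induced-minus-constitutive difference moved to -1.66 (quantile) and -1.65 (series table) in CFUe, -0.24 (normexp) in Ter119, -1.19 (series table) and -1.29 (normexp) in GMP, and -0.51, -0.49 and -0.42 (quantile, series table, normexp) in Mac1Gr1. With the replicate number as a block every count of called members was as without it (4, 5, 7, 3, 0, 8, 6, 2, 1, 6 and 4 in the 11 comparisons, 5 and 2 in the differences and 10 in the F-test) and no call changed. Deviations of same-numbered arrays had a median correlation of 0.00234 (from -0.43 to 0.369), against 0.0076 for other pairs. A median over all fractions cannot show whether some of them were paired by number. Arrays of the same slide had a median of 0.116, against 9.08e-05 for other slides.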

Other observations

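Of 3 kinases listed as shutting down translation through eIF2alpha, 1 rose and 1 fell from CFUe to Ter119. Over all probes 29.2% were called higher and 28.0% lower there. Eif2ak3, a further such kinase kept in the endoplasmic reticulum list, had mean levels of -1.43 in CFUe and 0.1 in Ter119. Eif2ak1, the heme-regulated kinase of red cell precursors, had a mean level of -1.09 in KLS and -0.63 in PreMegE, 0.52 in CFUe and 2.50 in Ter119. It rose by 1.15 ± 0.11 from PreMegE to CFUe (limma adjusted p 1.82e-07) and by 1.98 from CFUe to Ter119 (adjusted p 3.34e-11), the step at which 7 of the 10 members fell. Eif2ak4, the kinase that senses amino acid shortage, fell by 1.94 at that last step (adjusted p 1.57e-09). Edem1, which takes misfolded proteins out of the endoplasmic reticulum, rose by 2.41 there (adjusted p 1.89e-10), while Canx, a lectin chaperone of that compartment, fell by 2.70 (adjusted p 2.54e-12). The other cell types on the Ter119 arrays moved with these values, and their part was not tested.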
